A study of Mus musculus with 4 samples.

Results

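Aminoacyl-tRNA synthetases were followed in cultured mouse spermatogonia after nutrient restriction combined with retinoic acid. The members were the genes of the deposited count table whose symbol was on a set list of 35 synthetase genes, out of 55421 genes in the table. Of these, 19 encode enzymes of the cytosol and 16, with symbols ending in 2, enzymes of the mitochondrion. All 35 were found and all passed the filter on low counts, as did 20232 genes in total. The list does not hold the cytosolic methionine enzyme (Mars), which is described with the partner genes below.

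Poly(A) RNA was measured by RNA-seq in 4 libraries of spermatogonial cultures from CD1 mice, 2 per group. In the Veh group the cells stayed in complete spermatogonial stem cell medium, and in the NRRA group they received a nutrient restriction medium, mostly a balanced salt solution, together with retinoic acid (RA). Both cultures grew on a layer of mouse embryonic fibroblasts, so each library carried RNA of germ cells and of feeder cells. The labels give N2 supplement and the same concentration of bFGF and GDNF for every culture. By the study's recipe the NRRA medium was a small part of complete medium, a balanced salt solution for the rest, and RA. The recipe names no other addition, so by it these factors were diluted in NRRA, unlike what the labels give. Neither group received nutrient restriction alone or RA alone, and the effects of the changed medium and of added RA cannot be told apart in these libraries.

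A synthetase joins one amino acid to its matching tRNA, and the charged tRNA then brings that amino acid to the ribosome. The cytosolic enzymes supply translation of nuclear mRNAs. A separate set, encoded in the nucleus and imported, serves the small number of proteins translated inside the mitochondrion, while Gars and Kars each supply both compartments from one gene. Several cytosolic enzymes sit together in the multi-synthetase complex, which is held together by the scaffold proteins Aimp1, Aimp2 and Eef1e1. In many cells that lack amino acids, uncharged tRNA activates the kinase encoded by Eif2ak4 (GCN2), and the transcription factor ATF4 then raises synthetase, amino acid synthesis and transporter genes.

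The libraries held between 28022265 and 31604769 counts, and the groups had closely similar TMM scaling factors within themselves (0.969 and 0.970 for Veh, 1.03 for each NRRA library). Over all tested genes the median log2 fold change, NRRA over Veh, was 2.89e-04, and 49.6% of the calls were higher in NRRA, or 60.3% when libraries were scaled by their totals only. Of 8 germ cell markers, 3 rose (Dazl, Rhox13 and Sall4) and 4 fell (Mael, Tex101, Utf1 and Zbtb16), and the list took 0.178% to 0.188% of the counts in every library. Of 10 fibroblast feeder markers, 8 fell and 1 rose (Col3a1). The list's share was 0.824% and 0.815% in Veh and 0.691% and 0.676% in NRRA, with no defining marker at 0. Most of the list's counts were those of Fn1, with 166615 and 181105 in Veh and 142061 and 131008 in NRRA. The fall of the list's share was mostly the fall of Fn1. Over all tested genes 28.4% fell and 27.9% rose. The share of 7 Sertoli cell markers was 0.00358% and 0.00396% in Veh and 0.00212% and 0.00209% in NRRA. Of these, Amh and Rhox5 had at most 3 counts in any library, while Sox9 fell (735 and 874 against 304 and 284 counts), Inha rose and Wt1 had 178 to 233 counts. The share of 5 Leydig cell markers lay between 7.28e-04% and 9.87e-04%, with Hsd3b1 at no more than 1 count and Star at 189 to 286, higher in NRRA. A synthetase mRNA level here sums germ cells and feeders, fewer cells of a type and less RNA per cell cannot be told apart, and the part of the feeder and Sertoli marker shares in the changes below was not tested.

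Most cytosolic synthetase mRNAs were lower after NRRA. Of the 19 cytosolic genes, 15 fell, 2 rose (Hars and Wars) and 2 did not pass the test (Dars and Farsa), at a Benjamini-Hochberg adjusted p under 0.05 in edgeR's quasi-likelihood test over all genes. Among all tested genes 28.4% fell and 27.9% rose by the same rule, 56.4% in all, against 17 of the 19 here. The median SE was 0.034 for the cytosolic genes and 0.102 over all tested genes, so smaller changes could pass in this set. The median log2 fold change of the cytosolic genes was -0.41, with a range from -0.71 to 0.28. Over the 4 ways to pair libraries across groups, the median log2 CPM difference ran from -0.407 to -0.385 (SD 0.0092). These pairings share libraries, so that SD does not measure the precision of the median. With scaling by library totals only, the median log2 fold change was -0.32. Together the cytosolic genes took 0.370% and 0.374% of all counts under Veh and 0.301% and 0.302% under NRRA. The fall was moderate for most genes. Only Kars, Iars, Aars and Cars fell by at least 1.5-fold, a size of fall reached by 12% of all tested genes, and none rose by that much, against 11.8% of all tested genes. None rose by that much in DESeq2 either. In 17 of the 19 genes both NRRA libraries lay below both Veh libraries in CPM (counts scaled to a fixed, TMM-adjusted library total), and in the other two both lay above. Among all tested genes 76.7% had groups that did not overlap, 38.6% with NRRA lower and 38.1% with NRRA higher.

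The mitochondrial genes were closer to balance. Their median SE was 0.069, larger than that of the cytosolic genes. Of 16, 7 fell (Ears2, Fars2, Iars2, Nars2, Tars2, Vars2, Yars2), 3 rose (Aars2, Cars2, Wars2) and 6 did not pass the test. These 10 calls among 16 genes stand beside 56.4% called over all tested genes, and so lie near the general rate. None changed by 1.5-fold in either direction with edgeR or DESeq2. By an unadjusted p under 0.05 the counts were 7 lower and 4 higher. The share of all tested genes by that rule is not given here, so these counts are not set against a general rate. Their median log2 fold change was -0.09 ± 0.053 (SD over 4 library pairs), with a range from -0.49 to 0.36. That median was -0.14 without Veh replicate 1, -0.04 without Veh replicate 2 and -0.000934 when libraries were scaled by their totals only, a setting that called 5 genes higher, while DESeq2 called 1 higher. Their share of all counts was 0.0643% and 0.0682% in Veh and 0.0636% and 0.0632% in NRRA. In 14 of the 16 the groups did not overlap, with NRRA lower in 9, beside 76.7% and 38.6% of all tested genes.

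Within each library the distance between the compartments narrowed. The CPM medians in this paragraph are not divided by gene length, so their change between groups is what is compared. The median log2 CPM of the cytosolic genes exceeded that of the mitochondrial genes by 2.49 and 2.52 under Veh and by 2.13 and 2.17 under NRRA. The cytosolic median itself was 7.37 and 7.43 log2 CPM in Veh and 7.05 and 7.06 in NRRA. The mitochondrial median was 4.88 and 4.91 log2 CPM in Veh and 4.92 and 4.89 in NRRA, so that its groups overlapped. Divided by gene length, as described below, the mitochondrial median was lower in both NRRA libraries than in either Veh library. The size of the narrowing thus depends on the measure. The difference between the compartments was not tested, since 2 libraries per group allow no permutation p under 0.05 and no model compared the sets.

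**Figure D1:**
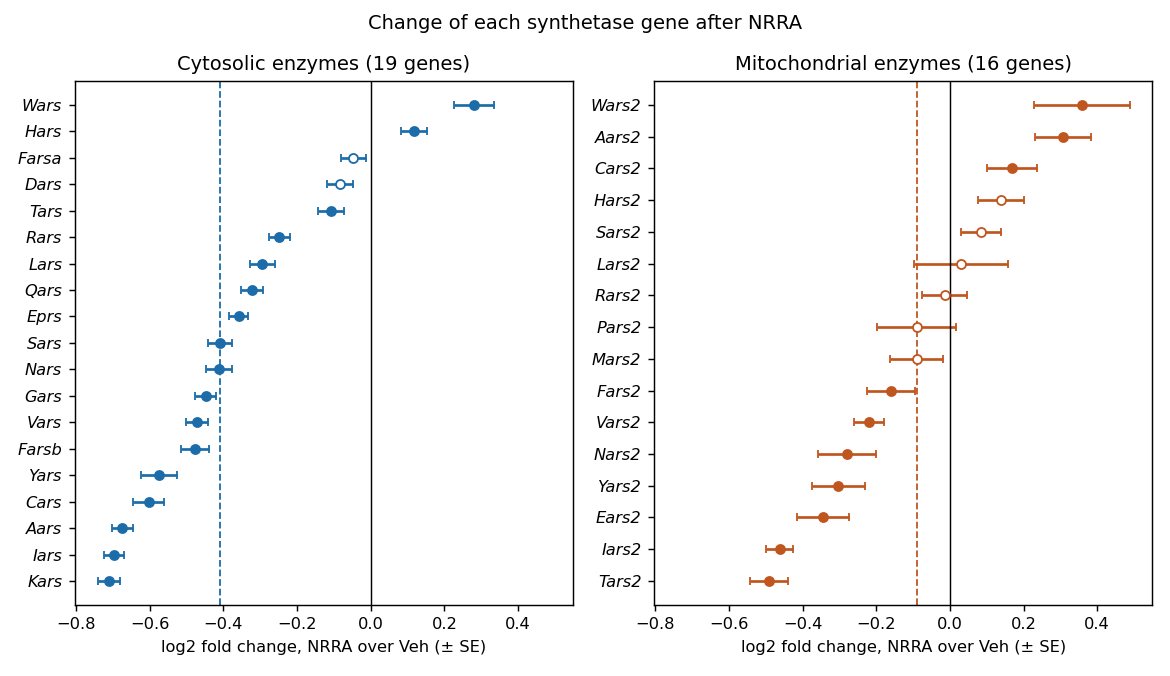
Log2 fold change (NRRA over Veh, with SE) of each cytosolic (left) and mitochondrial (right) synthetase gene. Filled points passed edgeR's test at an adjusted p under 0.05, open points did not, and the dashed line marks the median of the set, at -0.41 for the cytosolic and -0.09 for the mitochondrial genes.

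The largest falls were in genes for lysine, isoleucine, alanine and cysteine. Kars (ENSMUSG00000031948, GRCm38 chr8:111993443-112011323), the lysine enzyme of both compartments, had 6637 and 7400 counts under Veh against 4905 and 4535 under NRRA. Its level went from 247 ± 2.82 to 151 ± 0.0235 CPM (SD, n = 2 each). Both NRRA libraries were at 151 CPM, far below either Veh library, and the log2 fold change was -0.71 (SE 0.030, edgeR adjusted p = 6.76e-17).

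Iars (ENSMUSG00000037851, chr13:49682100-49734267), which charges isoleucine, had 9530 and 10448 counts under Veh against 6986 and 6595 under NRRA, or 351 ± 0.167 and 217 ± 3.23 CPM. The Veh libraries were almost identical in CPM and the groups were well apart, with -0.70 as log2 fold change (SE 0.027, adjusted p = 1.58e-17 with edgeR). Near-identical sequence of the pseudogene Gm4849 covers 49.9% of its longest transcript, and that pseudogene held 7 to 23 counts per library. Reads that match both may go uncounted, and the part of shared sequence in the Iars values was not tested.

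Aars (ENSMUSG00000031960, chr8:111033144-111057664), the alanine enzyme, had 8145 and 9109 counts under Veh against 6205 and 5699 under NRRA. Its CPM was 303 ± 4.12 in Veh and 189.9 ± 0.861 in NRRA, with no overlap and -0.68 as log2 fold change (SE 0.028, adjusted p = 6.47e-17 with edgeR). Exons of Exosc6 on the same strand share 14.3% of its exonic bases, and Exosc6 was listed at 0 counts in all 4 libraries. Reads that fall on both genes may go uncounted, so the 0 does not measure Exosc6. For Cars (ENSMUSG00000010755, chr7:143557230-143600090), the cysteine enzyme, 2794 and 3269 counts in Veh stood against 2287 and 2107 in NRRA. In CPM these were 106 ± 4.84 and 70.1 ± 0.165, -0.60 as log2 fold change (SE 0.042, adjusted p = 2.54e-12 with edgeR).

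Yars, the tyrosine enzyme, followed with 2083 and 2533 counts under Veh against 1750 and 1659 under NRRA. Its Veh libraries differed more from each other (76.8 and 85.1 CPM) than its NRRA libraries did (53.7 and 55.1 CPM), yet the lowest Veh value stayed above both. Its log2 fold change was -0.57 (SE 0.050, edgeR adjusted p = 1.91e-10).

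Most members of the multi-synthetase complex fell. Of the 7 on the list (Dars, Eprs, Iars, Kars, Lars, Qars and Rars), 6 fell and none rose, beside 28.4% that fell and 27.9% that rose over all tested genes, and the median log2 fold change was -0.32. None of the 7 was higher at an unadjusted p under 0.05 or in DESeq2 either. By these rules 7 and 6 were lower. Of the 20232 tested genes DESeq2 called 4529 higher and 4625 lower, and the all-gene share by the unadjusted rule is not given here. Eprs, which joins the glutamate and proline enzymes in one protein, had 13003 and 14673 counts under Veh against 12254 and 11508 under NRRA. Scaled for depth it went from 486 ± 9.69 to 379 ± 4.25 CPM, -0.36 as log2 fold change (SE 0.025, adjusted p = 3.28e-12 with edgeR). Qars (glutamine), Lars (leucine) and Rars (arginine) had smaller falls, with log2 fold changes of -0.32, -0.30 and -0.25. Dars, the aspartate enzyme, was the only measured member of the complex that did not pass. It had 117 and 115 CPM in Veh and 109.5 and 110.1 in NRRA, a narrow gap without overlap, and its log2 fold change was -0.08 (SE 0.036, edgeR adjusted p = 0.0527).

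Among the 12 cytosolic genes outside the complex, 9 fell and 2 rose, beside the same 28.4% and 27.9%, with a median log2 fold change of -0.43. Gars, the glycine enzyme of cytosol and mitochondrion, had 8509 and 9408 counts under Veh against 7595 and 6874 under NRRA. It fell from 315 ± 1.74 to 231 ± 3.44 CPM, -0.45 as log2 fold change (SE 0.028, adjusted p = 1.88e-13 with edgeR). Vars (valine), Nars (asparagine) and Sars (serine) fell by similar amounts, with log2 fold changes of -0.47, -0.41 and -0.41. Tars, the threonine enzyme, changed least of the genes that fell, at -0.11 (SE 0.035, edgeR adjusted p = 0.0111), and its call was lost under 3 of 11 alternative settings, with an adjusted p from 0.00856 to 0.698 over the 11.

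The subunits of the phenylalanine enzyme did not move equally. The active enzyme holds an alpha chain (Farsa) and a beta chain (Farsb). Farsb had 3175 and 3598 counts under Veh against 2779 and 2578 under NRRA, and fell from 119 ± 2.73 to 85.5 ± 0.216 CPM (log2 fold change -0.48, SE 0.038, edgeR adjusted p = 3.45e-11). Farsa had 3725 and 4050 counts under Veh against 4280 and 4010 under NRRA, or 137 ± 0.869 and 132 ± 1.26 CPM. Its log2 fold change was -0.05 (SE 0.034, edgeR adjusted p = 0.243), although its NRRA libraries both lay just under its Veh libraries. The difference between the subunits was not tested. Of Farsb's exonic bases, 9.47% are overlapped by Sgpp2 on the opposite strand.

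Tryptophan and histidine enzymes went against the set. Wars, the tryptophan enzyme and in many cells an interferon-inducible gene, had 1350 and 1627 counts under Veh against 2160 and 1823 under NRRA. Its CPM was 49.8 and 54.7 in Veh and 66.3 and 60.6 in NRRA, with no overlap but with more spread in either group than most members showed. The log2 fold change was 0.28 (SE 0.055, edgeR adjusted p = 8.87e-05). Hars, the histidine enzyme, had 3205 and 3368 counts under Veh against 4057 and 3803 under NRRA, or 116 ± 3.52 and 125 ± 1.24 CPM. Its rise was small (log2 fold change 0.12, SE 0.036, edgeR adjusted p = 0.00723), and the call was lost without Veh replicate 2 (adjusted p = 0.0953) or without NRRA replicate 2 (adjusted p = 0.0638), with adjusted p from 1.91e-05 to 0.0953 over 11 alternatives. Hars and Hars2 lie head to head on opposite strands, and their gene spans share 198 bases. The other gene overlaps 7.97% of the exonic bases of Hars and 4.56% of those of Hars2.

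**Figure D2:**
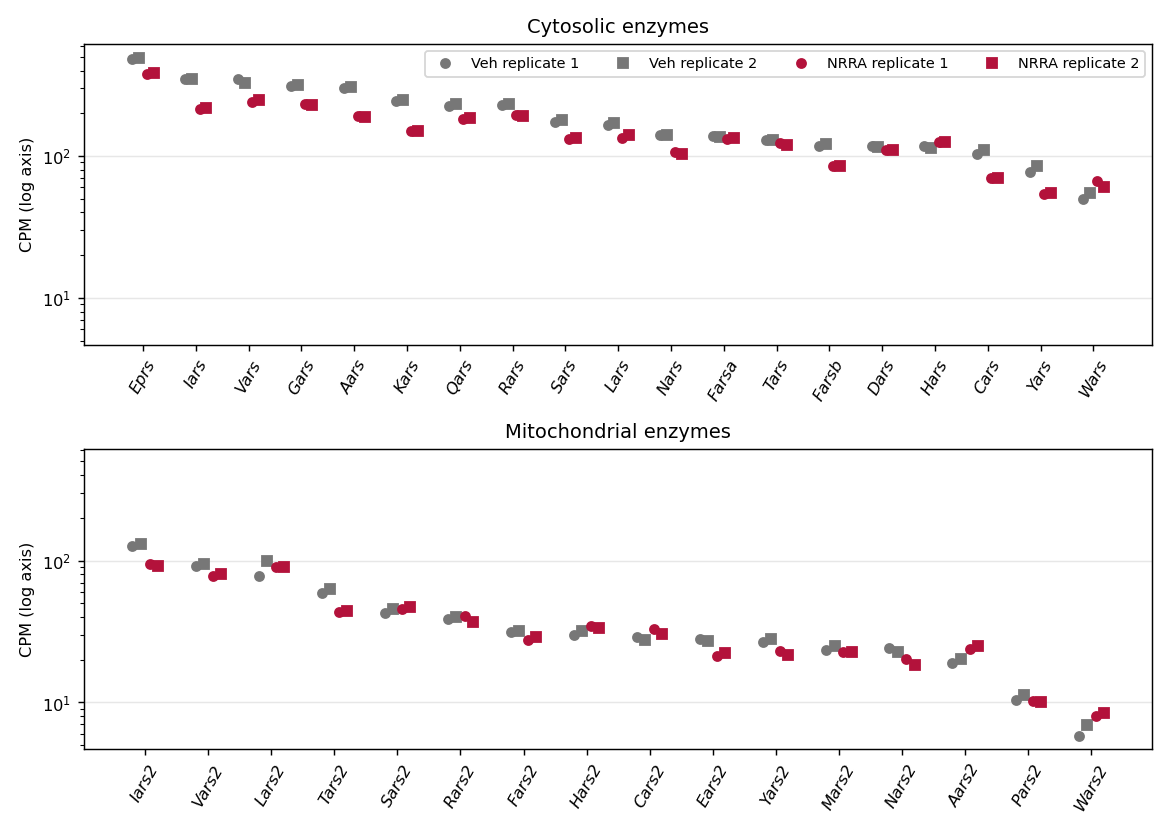
CPM (log axis) of each synthetase gene in each of the 4 libraries, with cytosolic and mitochondrial genes in separate panels. The NRRA libraries lie below the Veh libraries for 17 of 19 cytosolic genes and for 9 of 16 mitochondrial genes, and the libraries of a group overlap those of the other for Lars2 and Rars2.

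Some promoters are shown because the cytosolic genes moved together and several of them are known ATF4 targets in other cells. RefSeq windows (GRCm38.p6) from 250 bases before to 50 bases after the gene start were at hand for 12 cytosolic and 14 mitochondrial members. Cars, Hars, Lars, Nars, Rars, Vars, Wars, Hars2 and Pars2 were not among them. Each window was searched on both strands for TGATGNAA, the core of the element bound by ATF4 with C/EBP proteins, and for CACGTG, an E-box that is its own reverse complement and is bound by the MYC family. The motifs share no overlap in these windows. Sequences below read 5′ to 3′ on the strand of the gene, with a match to either motif in capitals. Each carries its place relative to the RefSeq gene start, the base before which is -1. The first 4 hold TGATGNAA, mostly as its reverse complement, the next holds an E-box, and neither motif was in the last 2.
Iars, chr13:49682120-49682149 (plus strand), -10 to 20: gcctggcactgtcagtaTTGCATCAcctcc
Yars, chr4:129189893-129189922 (plus strand), -10 to 20: cgacgagctcagcTGATGCAAcccgacggg
Gars, chr6:55037901-55038000 (plus strand), -100 to -1: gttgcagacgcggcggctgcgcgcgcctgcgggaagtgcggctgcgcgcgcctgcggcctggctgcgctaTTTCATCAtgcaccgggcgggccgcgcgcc
Tars, chr15:11399666-11399758 (minus strand), -100 to -8: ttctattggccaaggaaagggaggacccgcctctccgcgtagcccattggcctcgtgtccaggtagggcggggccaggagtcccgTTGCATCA
Farsb, chr1:78488898-78488997 (minus strand), -100 to -1: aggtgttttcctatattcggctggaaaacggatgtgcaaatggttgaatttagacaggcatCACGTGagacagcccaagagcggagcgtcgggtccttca
Kars, chr8:112011355-112011397 (minus strand), -43 to -1: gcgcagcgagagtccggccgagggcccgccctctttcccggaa
Aars2, chr17:45506732-45506831 (plus strand), -100 to -1: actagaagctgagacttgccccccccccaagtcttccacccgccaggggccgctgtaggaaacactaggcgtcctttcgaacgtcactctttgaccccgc

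TGATGNAA was in the windows of 5 of 12 cytosolic genes (41.7%), of none of the 14 mitochondrial genes and of 4.51% of all 27025 genes with a window. CACGTG was in the windows of 4 of 12 cytosolic genes (33.3%), Farsb, Iars and Tars among them, of 1 of 14 mitochondrial genes (Ears2) and of 8.09% of all genes. The 5 genes with TGATGNAA ranged in log2 fold change from -0.70 (Iars) to -0.11 (Tars), with a median of -0.57. The 7 cytosolic genes without it in the window ranged from -0.71 (Kars) to -0.05 (Farsa), with a median of -0.36. These ranges overlapped, and Kars, with the largest fall of all members, had neither motif in its window. A match describes letters only and was not tested for binding.

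Among the mitochondrial genes, the largest falls were in the threonine and isoleucine enzymes. Tars2 (ENSMUSG00000028107, chr3:95739976-95760206) had 1615 and 1872 counts under Veh against 1403 and 1330 under NRRA. It went from 61.2 ± 2.38 to 43.6 ± 0.778 CPM without overlap (log2 fold change -0.49, SE 0.052, edgeR adjusted p = 7.01e-09), while cytosolic Tars had -0.11 on the same scale. Iars2 (ENSMUSG00000026618, chr1:185284726-185329396) had 3444 and 3870 counts under Veh against 3073 and 2774 under NRRA, or 129 ± 2.18 and 93.2 ± 1.56 CPM (log2 fold change -0.46, SE 0.037, edgeR adjusted p = 3.53e-11). Of its exonic bases, 24.2% are overlapped on the opposite strand, by Rab3gap2 among others, and Rab3gap2 rose (log2 fold change 0.37). Ears2, the glutamate enzyme, had 761 and 812 counts under Veh against 691 and 673 under NRRA, with -0.35 as log2 fold change (SE 0.071, adjusted p = 1.71e-04 with edgeR). Yars2 (tyrosine), Nars2 (asparagine) and Vars2 (valine) had log2 fold changes of -0.30, -0.28 and -0.22. The call for Nars2 was lost without NRRA replicate 2 (adjusted p = 0.0798), with a range from 0.00113 to 0.0798 over 11 alternatives. Fars2, the single-chain phenylalanine enzyme of the mitochondrion, passed narrowly (log2 fold change -0.16, SE 0.065, edgeR adjusted p = 0.0388) and lost the call under 8 of 11 alternatives, with an adjusted p from 0.0367 to 0.377.

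The 3 mitochondrial genes that rose charge alanine, tryptophan and cysteine. Aars2, the mitochondrial alanine enzyme, had 511 and 604 counts under Veh against 770 and 749 under NRRA, or 19.6 ± 1.03 and 24.3 ± 0.875 CPM. Both NRRA libraries lay above both Veh libraries, with 0.31 as log2 fold change (SE 0.076, adjusted p = 0.00117 with edgeR), and the call held under all 11 alternatives. Wars2, the tryptophan enzyme, had only 158 and 206 counts under Veh against 261 and 252 under NRRA, with 0.36 as log2 fold change (SE 0.13, adjusted p = 0.0220 with edgeR). For Cars2, the cysteine enzyme, 780 and 819 counts in Veh stood against 1074 and 909 in NRRA, with 0.17 as log2 fold change (SE 0.067, adjusted p = 0.0354 with edgeR). Each of the last 2 calls was lost under 3 of 11 alternatives, Wars2 with an adjusted p from 0.00474 to 0.198 and Cars2 with one from 0.00179 to 0.349.

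The leucine enzyme Lars2 depended most on single libraries. The Veh libraries had 77.8 and 98.7 CPM and the NRRA libraries 90.4 CPM each, so the NRRA values lay between the Veh values and the log2 fold change was 0.03 (SE 0.13, edgeR adjusted p = 0.868). Without Veh replicate 1 it was -0.13 (adjusted p = 0.0148), and without Veh replicate 2 it was 0.21 (adjusted p = 8.71e-05), with adjusted p from 8.71e-05 to 0.898 over 11 alternatives. Looked up after these values were seen, the ribosomal RNA Gm42418 was also lowest in Veh replicate 1, at 791 CPM against 856 to 860.4 in the other libraries, while mitochondrial mt-Rnr2 was at 185 CPM there and between 169 and 215 elsewhere. Their part in the Lars2 value was not tested. Of the other mitochondrial genes that did not pass, Hars2 had a log2 fold change of 0.14, Sars2 (serine) of 0.08, Rars2 (arginine) of -0.01, and Mars2 (methionine) and Pars2 (proline) of -0.09 each.

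The same split showed in pairs of genes for one amino acid. Across 16 pairs of a cytosolic gene and its mitochondrial counterpart, the count ratio within a library, which needs no scaling for depth, was lower in NRRA in 14, and in 11 of these the groups did not overlap. In 2 pairs the ratio was higher in NRRA, also without overlap. Over all tested genes 76.7% had groups that did not overlap in CPM, 38.6% with NRRA lower. These shares are of single genes and not of ratios. The ratios restate the fold changes given above for pairs of genes, and Eprs and Fars2 each enter more than 1 pair. The median change of the log2 ratio was -0.24. For Aars over Aars2 the ratio was 15.9 and 15.1 in Veh and 8.06 and 7.61 in NRRA, a log2 change of -0.99 (SE 0.081 from both fits), the largest of the pairs, since one gene fell and the other rose. For Cars over Cars2 the ratio was 3.58 and 3.99 in Veh and 2.13 and 2.32 in NRRA (-0.77), and for Sars over Sars2 it was 4.10 and 3.95 in Veh and 2.88 and 2.82 in NRRA (-0.50). The threonine pair ran the other way, with Tars over Tars2 at 2.19 and 2.07 in Veh and 2.86 and 2.69 in NRRA (0.38), and the ratio of Farsa over Fars2 was also higher (0.11). The groups overlapped for Eprs over Ears2, Hars over Hars2 and Wars over Wars2, in which both genes of a pair had log2 fold changes of like sign and size. No p-value was computed for ratios.

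**Figure D3:**
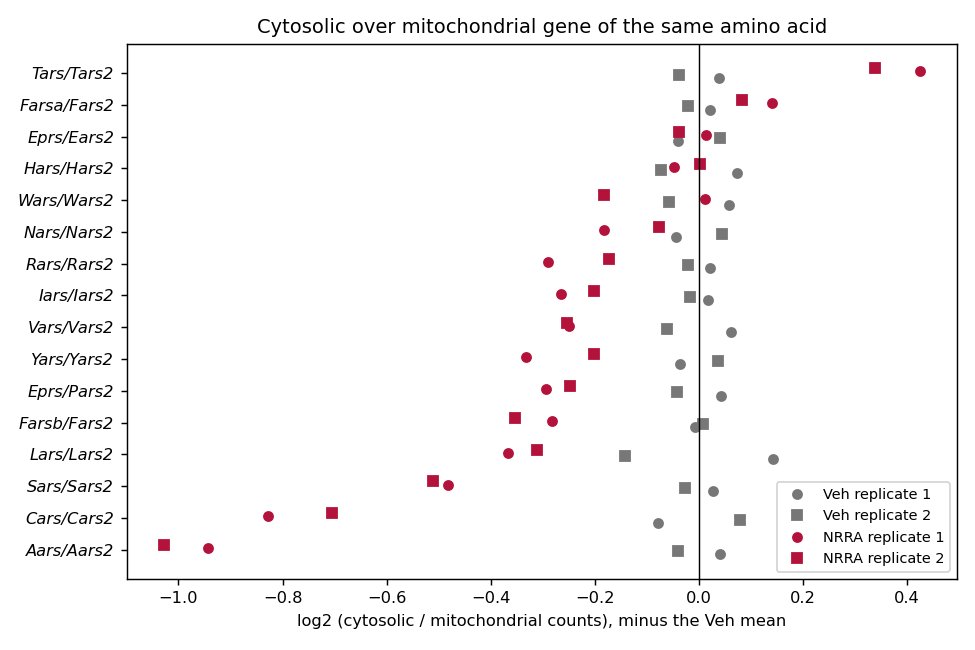
Log2 ratio of the counts of a cytosolic gene to those of the mitochondrial gene of the same amino acid, in each of the 4 libraries, minus the mean of the Veh libraries. The NRRA points lie left of the Veh points in 11 pairs, furthest for Aars over Aars2, right of them for Tars over Tars2 and Farsa over Fars2, and overlap in 3 pairs.

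To set the level of one gene against that of another, values were divided by length, as RPKM (CPM divided by the exonic length in kilobases). The median RPKM of the cytosolic genes was 32.4 and 33.0 in Veh and 25.7 and 26.1 in NRRA, and that of the mitochondrial genes was 6.23 and 6.50 in Veh and 5.59 and 5.80 in NRRA. Gars had the highest level per length, 101 ± 0.557 RPKM in Veh and 74.0 ± 1.10 in NRRA (SD, n = 2 each), followed by Rars at 71.1 ± 0.529 and 59.9 ± 0.411. Wars2 had the lowest, 1.07 ± 0.131 and 1.38 ± 0.0424 RPKM, and Mars2 lay above it at 2.15 ± 0.0841 and 2.02 ± 0.00218. These ends of the order were the same in both groups, and also with the longest transcript as the length. In the middle the order depended on the length used, and Eprs ranked 14 with all exonic bases but 4 with the longest transcript in Veh. Hars moved from rank 6 in Veh to 3 in NRRA and Aars from 10 to 16, by all exonic bases. Neighbours such as Aars and Nars in Veh (32.7 ± 0.444 and 32.3 ± 0.168 RPKM) did not differ beyond their spread.

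**Figure D4:**
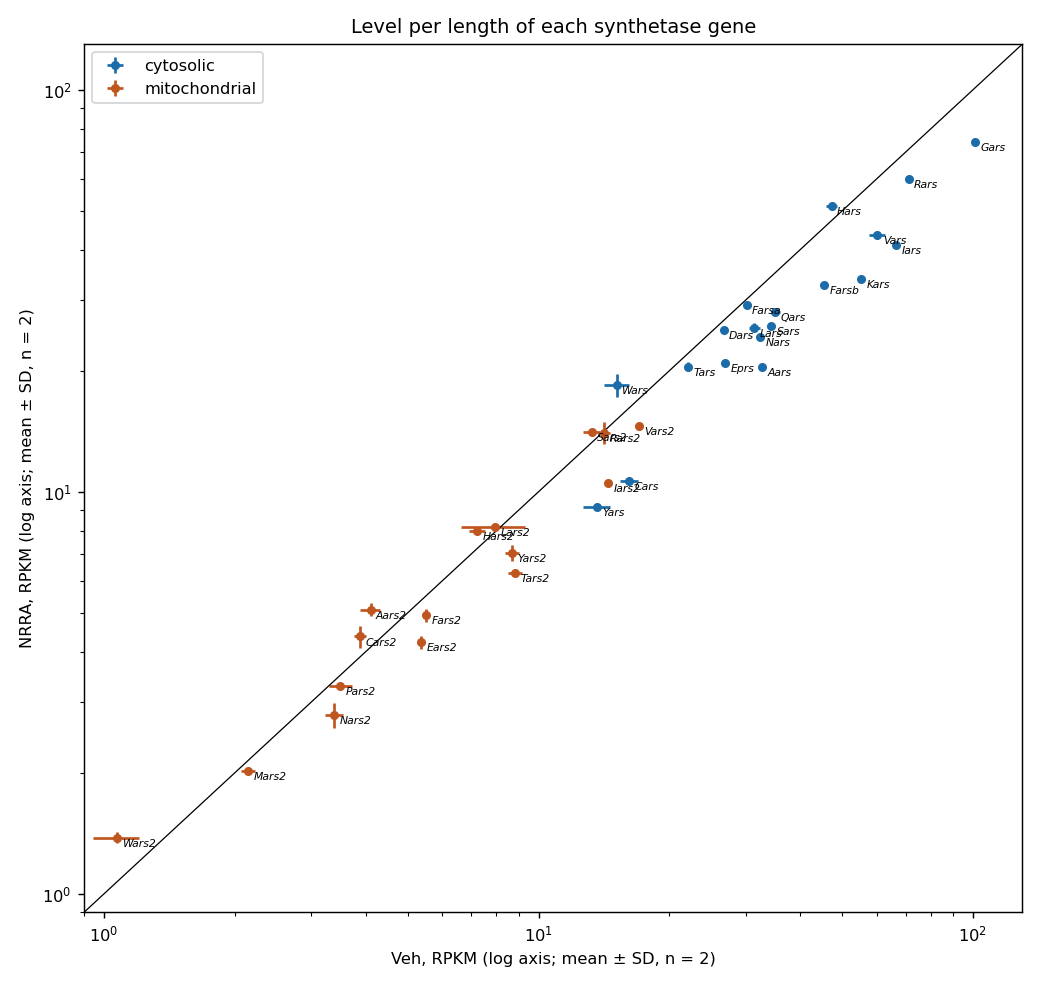
RPKM of each synthetase gene in NRRA against Veh, on log axes, as mean with SD of 2 libraries, with the line of equal level. Gars stands highest at 101 RPKM in Veh and 74.0 in NRRA and Wars2 lowest at 1.07 and 1.38, and most cytosolic genes lie under the line.

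Other genes of tRNA charging were described from a set list of which 24 of 26 symbols were in the table. Of these 24, 11 fell, 4 rose and 9 did not pass, and the median log2 fold change was -0.10, beside 28.4% that fell and 27.9% that rose among all tested genes. Of the family members outside the rule, Mars fell and Tarsl2, a relative of the threonine enzyme, did not pass. Mars had a log2 fold change of -0.47 (edgeR adjusted p = 6.75e-13). The scaffolds of the multi-synthetase complex fell as well, with log2 fold changes of -0.33 for Aimp1, -0.36 for Aimp2 and -0.55 for Eef1e1. Sequence of Eif2ak1 matches 41.2% of the longest transcript of Aimp2. Eef1e1 had 1059 and 1269 counts under Veh against 877 and 876 under NRRA. Xpot, the exporter of tRNA from the nucleus, fell too (log2 fold change -0.46), though a pseudogene is near-identical to 48.1% of its longest transcript. Prorsd1, related to an editing domain of the proline enzyme, had 377 and 443 counts under Veh against 306 and 305 under NRRA (log2 fold change -0.56, edgeR adjusted p = 3.53e-05).

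Carriers of charged tRNA split by isoform. Eef1a1, the main carrier to the ribosome, took 120561 and 138550 counts under Veh against 115995 and 107968 under NRRA (log2 fold change -0.35), with 87.7% of its longest transcript near-identical to sequence elsewhere. Eef1a2, the isoform typical of nerve and muscle, had only 11 and 16 counts under Veh against 144 and 140 under NRRA, 3.25 as log2 fold change (SE 0.26, adjusted p = 5.09e-11 with edgeR). Its NRRA counts lay far above its Veh counts in each library. The mitochondrial carrier Tufm had a log2 fold change of -0.19, and a pseudogene is near-identical to 77.5% of its longest transcript.

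Genes listed with the selenocysteine tRNA did not move together. Pstk, the kinase that acts on the serine-charged tRNA, had 844 and 959 counts under Veh against 1609 and 1492 under NRRA (log2 fold change 0.64, edgeR adjusted p = 2.59e-10), though 87.9% of its longest transcript is near-identical to sequence of Ikzf5 and of a pseudogene. Sepsecs, the enzyme of the last step, rose less (log2 fold change 0.21, edgeR adjusted p = 0.00605). Sephs1 had 1300 and 1562 counts under Veh against 963 and 869 under NRRA (log2 fold change -0.78, SE 0.061, edgeR adjusted p = 2.01e-11), the largest fall of the list, while Sephs2, which makes the selenium donor, had a log2 fold change of -0.05 and did not pass. Gatc, a subunit of the mitochondrial amidotransferase, rose (log2 fold change 0.28), and the call was lost under 2 of 11 alternatives, while its partners Gatb and Qrsl1 did not pass. Aarsd1, an editing factor, had 18 and 20 counts under Veh against 33 and 27 under NRRA, and its log2 fold change of 0.51 (SE 0.38) did not pass (edgeR adjusted p = 0.258). Sequence of Gm27029 matches 82.7% of its longest transcript.

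Genes of the amino acid starvation response were set beside the synthetases. Of 18 listed genes, 12 fell, 3 rose and 3 did not pass, with a median log2 fold change of -0.56, beside 28.4% that fell and 27.9% that rose among all tested genes. Phgdh, the first enzyme of serine synthesis, had 7341 and 8009 counts under Veh against 1768 and 1675 under NRRA (log2 fold change -2.30, SE 0.035, edgeR adjusted p = 2.40e-26), with 89.5% of its longest transcript near-identical to pseudogenes. Shmt2, which makes glycine from serine in the mitochondrion, went from 8178 and 8258 counts to 4728 and 4204 (log2 fold change -1.02), and Psat1 had a log2 fold change of -0.53.

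The starvation list also holds 3 amino acid transporter genes. Slc7a11, the cystine importer, had 1139 and 1240 counts under Veh against 299 and 297 under NRRA (log2 fold change -2.14, edgeR adjusted p = 2.38e-18). Slc7a5, which imports leucine and other large neutral amino acids, had 13310 and 14563 counts under Veh against 6590 and 6528 under NRRA (log2 fold change -1.23, edgeR adjusted p = 4.58e-22). Its partner chain Slc3a2 went from 6653 and 7518 counts to 3776 and 3613 (log2 fold change -1.08).

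The regulators of the response were mixed. Atf4 had 3120 and 3366 counts under Veh against 2473 and 2248 under NRRA (log2 fold change -0.60, SE 0.039, edgeR adjusted p = 6.12e-13), although ATF4 is controlled largely at translation, which was not measured. Its target Trib3 went from 270 and 299 counts to 110 and 158 (log2 fold change -1.22). Eif2ak4, the sensor kinase, rose from 1840 and 2070 counts to 2894 and 2757 (log2 fold change 0.39, edgeR adjusted p = 1.05e-08). Atf5, a related transcription factor, had 872 and 968 counts under Veh against 1604 and 1393 under NRRA (0.56 on the log2 scale), and the stress gene Nupr1 had 356 and 365 in Veh and 817 and 638 in NRRA (0.87 on the log2 scale). Asns, which makes asparagine and is a standard ATF4 target, had 1381 and 1653 counts under Veh against 1705 and 1601 under NRRA, and its groups overlapped in CPM (log2 fold change -0.01, edgeR adjusted p = 0.842). Ddit3 and Sesn2 did not pass either, with log2 fold changes of 0.16 and -0.05. TGATGNAA was in the RefSeq windows of 5 of the 17 starvation genes that had one (29.4%): Asns, Chac1, Nupr1, Slc7a11 and Trib3. Among these 5, Nupr1 rose, Chac1, Slc7a11 and Trib3 fell and Asns did not pass.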

How the data were processed

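The deposited values are unnormalized gene counts, made by the authors, in 1 table with a column per library, all whole and summing to unequal totals. Per the submitters' processing notes, bcl2fastq, STAR 2.6.1c and featureCounts 1.6.4 were used with the mouse build mm10. The strand setting and the annotation release were not given in the sources used here, so reads of genes on opposite strands may not be separated. The study's methods describe stranded oligo-dT libraries made with a Tecan kit, whereas an Illumina TruSeq kit and NuGEN are named in the labels. The study tested with DESeq2.

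Samples were grouped by their titles, and columns were matched to samples by their descriptions, since the titles number the Veh libraries 1 and 2 while the columns carry the next higher numbers. The study calls its sequencing replicates biological, but no label ties a library to a culture or mouse, so p-values measure the spread between these libraries. Paired replicate numbers were checked: the deviations of same-numbered libraries from their group means had r = 0.029 over 11326 genes, so the numbers were not used as pairs.

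Counts were tested with edgeR 4.0.16 in R 4.3.3 after filterByExpr and TMM scaling, by a robust quasi-likelihood F test over 20232 genes with Benjamini-Hochberg adjustment at 0.05. The common biological coefficient of variation was 2.61%. Log2 fold changes are NRRA over Veh, log2 CPM used a prior count of 2, and a changed fold means at least 1.5. The fit was tested on simulated data. Gene coordinates and lengths came from GENCODE M21 (GRCm38), in which all 35 members had the same symbol. Overlaps of exons and near-identical stretches (BLAST 2.17.0, at least 95% identity over at least 100 bases) were computed. Promoter windows came from RefSeq (GRCm38.p6) and matched 26 of 35 members. A gene of the partner list and a promoter sequence are not reported here, though counts over the lists include them.

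The members and gene lists were chosen with earlier results of these data known. The genes whose counts are given in every library were members with an absolute log2 fold change of at least 0.5 and a call, the 3 largest and 3 smallest log2 fold changes of each compartment, Gars, Kars, Eprs, Farsa and Farsb, and, of the partner and starvation lists, the 3 largest and 3 smallest log2 fold changes and each member changed at least 2-fold. Eef1a1, Atf4 and Asns, outside that rule, were added after their values were seen. Medians of sets are descriptions without a test. Alternatives were RLE, upper quartile and plain library size scaling, DESeq2 1.42.0, no count filter, no robust estimation, a replicate block and leaving out each library.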

Additional observations from a re-analysis of the deposited data

How the results depend on the processing

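Of the 35 members, 26 kept their side of the threshold under all 11 alternatives, and 23 of these also kept their sign. The exceptions, Dars, Farsa and Rars2, did not pass under any setting. Lars2 reversed without Veh replicate 1 (-0.13, against 0.21 without Veh replicate 2), and the cause was not tested beyond that library's removal. The other members with a changed call were Hars, Tars, Cars2, Fars2, Wars2 and Nars2, each of which lost it, and Hars2 and Sars2, which gained it. Of these, Hars2 passed with library size only, with upper quartile scaling and without Veh replicate 2, and Sars2 with library size only. With library size only, the median of all genes moved to 0.09 on the log2 scale and 60.3% of all calls were higher in NRRA against 49.6%. The cytosolic median was then -0.32, the mitochondrial median -0.000934 and the number of mitochondrial genes called higher 5. Upper quartile scaling gave a cytosolic median of -0.39, and DESeq2 called 1 mitochondrial gene higher. Leaving out 1 library, with a lone library assumed to vary like the other group, gave 1 to 2 cytosolic genes called higher (1 without Veh replicate 2 or without NRRA replicate 2), 14 to 15 lower, a cytosolic median between -0.41 and -0.39, and a difference between the compartments' medians from -0.35 (without Veh replicate 2) to -0.27 (without Veh replicate 1). The mitochondrial median then ranged from -0.14 (without Veh replicate 1) to -0.04 (without Veh replicate 2), with 2 to 4 genes called higher and 5 to 7 lower. With the replicate number as a block, 5772 genes were called higher and 5836 lower, and no member's call changed. Groups of 2 libraries limit what can be said of small changes, and low counts, as for Wars2, limit a call as well.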

Other observations

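Other divisions of the members are given as counts and medians without a test. Synthetases fall into class I and class II by the fold of their catalytic domain. Of 9 cytosolic class I genes 8 fell and 1 (Wars) rose, with a median log2 fold change of -0.36. Eprs is counted there, though it also holds a class II domain. Of 10 cytosolic class II genes 7 fell and 1 (Hars) rose, with a median of -0.41. In the mitochondrial set 4 of 9 class I genes fell and 2 rose, and 3 of 7 class II genes fell and 1 rose, with a median of -0.09 in both classes. Of all tested genes 28.4% fell and 27.9% rose.

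Beside the counts of this paragraph, 28.4% of all tested genes fell and 27.9% rose by the adjusted edgeR rule. Among 9 cytosolic genes for amino acids that mice cannot make, 6 fell and 2 rose (Hars and Wars), with a median log2 fold change of -0.30. Among the 10 for amino acids that mice can make, Eprs included, 9 fell and none rose, with a median of -0.41. None of these 10 was higher at an unadjusted p under 0.05 or in DESeq2 either. By these rules 10 and 9 were lower. Over all tested genes DESeq2 called 4529 higher and 4625 lower, and no such share is given for the unadjusted rule. The 11 cytosolic genes described in other cells as linked to ATF4 had 10 that fell and 1 that rose (Wars), with a median of -0.41, and the other 8 had 5 that fell and 1 that rose (Hars), with a median of -0.29. The ranges of these groups overlapped, from -0.70 to 0.28 for the linked genes and from -0.71 to 0.12 for the others.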
